A study of Mus musculus with 10 samples.

Results

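Type I interferon-stimulated genes are the genes that cells switch on after interferon alpha or beta binds its receptor. The set described here holds 31 such genes, each taken by its symbol in the platform annotation, and 29 of them could be measured among the 19938 genes of the array. Ifi44 had no probe set under its symbol and Isg15 had one that shares its probes with a second gene, so neither is given a value. For each of the other 29 genes the probe set with 1 symbol and the highest mean over the arrays was used. All 29 passed the filter on low values that left 14953 genes for the tests, which Mx2 and Mx1 passed closest to its limit of 6.55 log2 units, with means of 6.56 and 6.69.

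The samples were prostates of 10 male TRAMP mice, each on a biotin-labelled array of its own. In this transgenic line the promoter of Pbsn (probasin) drives T antigen of a virus in prostate epithelium, so both groups carried the transgene, and no mice without it are compared here. The water group (5 mice) had tap water alone, and the nicotine group (5 mice) had 250 µg/ml of nicotine, as the tartrate salt, in its tap water from an age of 8 to 9 weeks. The series belongs to a study of immune and inflammatory gene expression in the prostate tumours of smokers, and the comparison asks how these genes differ with nicotine alone. A value is a deposited log2 expression value, so a difference of 1 is a doubling on the array. It is compared between mice for the same gene and never between genes, because probes differ in brightness. The number of arrays limits the precision.

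In outline, RNA or DNA of a virus, or the cell's own nucleic acid out of place, is read by sensors that switch on interferon genes. Secreted interferon binds the receptor pair Ifnar1 and Ifnar2, the kinases Jak1 and Tyk2 pass the signal on, and a complex that includes Stat2 and Irf9 binds the interferon-stimulated response element (ISRE) in promoters. Its targets degrade or block viral RNA, and several of them are themselves sensors or transcription factors of the same pathway. In tumours the same genes are read as a sign of interferon signalling in tumour cells, stroma or immune cells.

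Nicotine mice 1 and 3 differed in tissue markers from the other 8 mice. The neuroendocrine granule gene Chga was at 11.74 and 11.31 log2 units in them and between 7.07 and 7.73 in the other 8 mice, and a limit of 9 separates the 2 arrays from the rest. The mean of 9 luminal prostate genes was 11.07 in nicotine 1 and 6.83 in nicotine 3, against 11.85 to 12.16 in the other 8 mice, and Pbsn was at 9.17 and 5.08 there. Of these 9 genes 8 were at their lowest of the 10 mice in nicotine 3, and the exception, Hoxb13, was at 10.23 there and 9.98 in nicotine 1, against 10.80 to 11.23 in the other 8. In nicotine 1 the luminal gene Krt8 went the other way, at 13.14, its highest of the 10 mice. Seminal vesicle secretory genes averaged 12.06 to 13.15 in water mice 3, 4 and 5 and 12.52 in nicotine 5, against 5.92 to 8.54 in the other 6. The comparison was therefore made over all 10 mice and over the 8 mice with Chga at or below 9. In these bulk samples fewer cells of a type and less RNA per cell cannot be told apart.

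Many genes of the set carry the letters of the response element near their start. The motif searched was GAAA, any 2 bases and GAAA again, on both strands, with overlapping matches counted, in RefSeq windows (build GRCm38.p6) from 250 bases before to 50 bases after each gene's start. Windows were held for 23 of the 31 genes. The motif was found in 11 of these 23 genes (47.8%), against 3.99% of all 27025 genes with such a window. The 11 were Bst2, Ddx58, Ifih1, Ifit1, Ifit3, Isg15, Oas1a, Oas3, Rsad2, Stat2 and Trim30a. A second motif (TTCC, any 2 bases, GAA, also on both strands), the core of the element bound by STAT dimers, was found in Bst2, Ifit2, Irf1 and Isg20, which is 17.4% of the 23 against 5.60% of all genes. A match describes these letters only. The 200 bases before the start are shown for the 6 genes with a match that had the smallest p in the 8 mice, as examples of how the motif lies in these windows. Cmpk2, Oas2 and Rtp4 had smaller p there than all of the 6. The window of Cmpk2 held no match, while no window was held for Oas2 and Rtp4, so these were not searched. Other genes with smaller p than some of the 6 were likewise passed over, for want of a window or of a match. The 6 shown are Rsad2 at chr12:26456453-26456652 on the minus strand, Bst2 at chr8:71537473-71537672 on the minus strand, Ifit1 at chr19:34640689-34640888 on the plus strand, Oas3 at chr5:120777660-120777859 on the minus strand, Ifit3 at chr19:34583329-34583528 on the plus strand and Oas1a at chr5:120907526-120907725 on the minus strand. Each is written 5′ to 3′ along its gene, and capitals mark the motif.
Rsad2: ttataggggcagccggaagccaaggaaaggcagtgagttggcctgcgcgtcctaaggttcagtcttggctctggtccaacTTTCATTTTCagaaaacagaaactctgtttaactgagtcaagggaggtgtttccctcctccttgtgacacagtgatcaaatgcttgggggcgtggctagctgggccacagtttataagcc
Bst2: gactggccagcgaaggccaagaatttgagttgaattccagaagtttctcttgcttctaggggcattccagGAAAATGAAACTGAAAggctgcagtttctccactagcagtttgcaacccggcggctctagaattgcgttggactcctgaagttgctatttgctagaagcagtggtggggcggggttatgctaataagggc
Ifit1: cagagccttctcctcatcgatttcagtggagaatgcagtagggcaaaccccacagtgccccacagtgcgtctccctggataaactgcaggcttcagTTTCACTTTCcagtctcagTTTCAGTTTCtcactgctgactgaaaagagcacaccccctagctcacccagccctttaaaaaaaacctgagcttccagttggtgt
Oas3: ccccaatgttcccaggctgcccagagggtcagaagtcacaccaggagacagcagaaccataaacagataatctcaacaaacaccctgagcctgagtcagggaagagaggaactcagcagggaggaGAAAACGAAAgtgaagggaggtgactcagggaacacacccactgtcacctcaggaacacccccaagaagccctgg
Ifit3: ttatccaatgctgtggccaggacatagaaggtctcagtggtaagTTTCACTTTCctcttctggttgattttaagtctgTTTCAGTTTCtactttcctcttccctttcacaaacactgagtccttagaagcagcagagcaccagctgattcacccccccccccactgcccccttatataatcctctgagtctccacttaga
Oas1a: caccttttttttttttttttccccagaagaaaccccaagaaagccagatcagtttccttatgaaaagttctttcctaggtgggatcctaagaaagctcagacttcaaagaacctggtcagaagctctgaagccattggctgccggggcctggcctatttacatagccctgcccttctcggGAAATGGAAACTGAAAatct
Ifit1 and Ifit3 each hold 2 separate matches that read the same in both genes, TTTCACTTTC and then TTTCAGTTTC, which begin 104 and 85 bases before the start in Ifit1 and 156 and 122 bases before it in Ifit3. In Bst2 and Oas1a 2 overlapping matches run into each other. The single match of Rsad2 begins 120 bases before the start and that of Oas3 75 bases before it. The median log2 difference, nicotine minus water, was -0.62 over all 10 mice and 0.33 over the 8 mice for the 10 measured genes with a match. For the 11 measured genes with a window and no match it was -0.45 and 0.31.

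Within the nicotine group the set split in opposite directions. Each gene was set against its own mean in the 5 water mice. The median over the 29 genes lay 2.42 log2 units below the water mean in nicotine 3 and 1.04 below it in nicotine 1. It was 0.15, 0.22 and 0.66 above the water mean in nicotine 2, 4 and 5, while the water mice themselves lay between -0.13 and 0.12. Nicotine 3 was below every water mouse in 28 of 29 genes, where 42.2% of all tested genes were, and it was the lowest of the 10 mice in 28, where 35.3% were. Nicotine 1 was below every water mouse in 27 of 29, against 38.6% of all tested genes. Above every water mouse stood 1 gene in nicotine 3, against 38.0% of all tested genes, and 0 in nicotine 1, against 34.1%. Nicotine 5 was above every water mouse in 27 of 29 genes, where 17.5% of all tested genes were, and it was the highest of the 10 mice in 26 of 29, against 4.83% of all tested genes. Nicotine 2 was above every water mouse in 16 genes, against 23.0% of all tested genes, and nicotine 4 in 14, against 15.6%. Below every water mouse stood 0 genes in nicotine 2 (21.7% of all tested genes), 1 in nicotine 4 (18.4%) and 0 in nicotine 5 (19.9%). The excess over all tested genes was thus clearest in nicotine 5, and the set was at its lowest and at its highest within the same 5 mice.

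**Figure D1:**
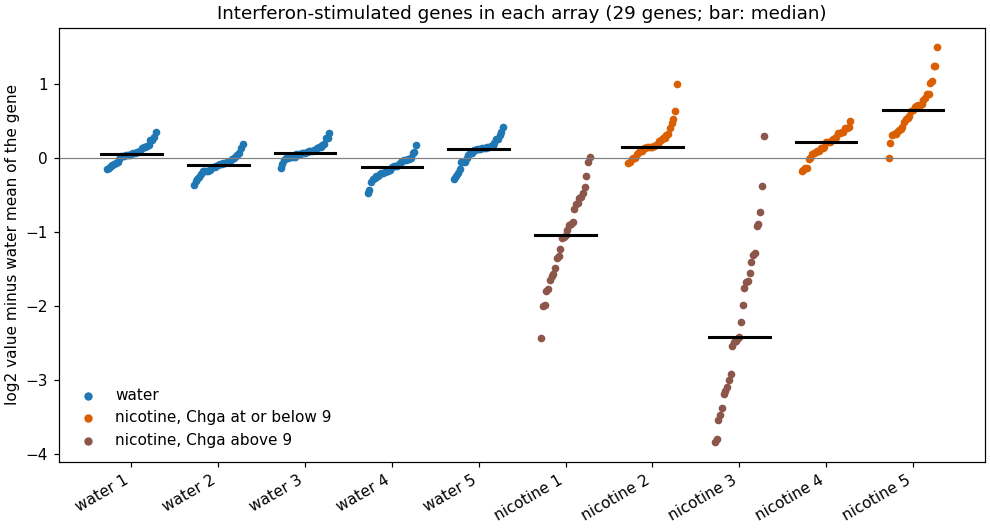
Log2 value of each of the 29 measured genes minus that gene's mean in the 5 water mice (vertical axis), by mouse (horizontal axis), with 1 point per gene and a bar at the median. The water mice lie around 0, nicotine 1 and 3 (brown, Chga above 9) have medians 1.04 and 2.42 below it, and nicotine 5 has a median 0.66 above it.

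The genes varied more between mice than most genes did. In water mice the median SD per gene was 0.156 log2 units over the set, against 0.0969 over all tested genes, and in nicotine mice 1.26 against 0.261. Among nicotine mice 2, 4 and 5 alone it was 0.286 against 0.0788. Each gene was also set, over the 8 mice, against the mean of the other 28. As a description over 8 arrays, with 2 groups among them, the correlation had a median of 0.872 over the 29 genes. It ran from 0.093 for Samhd1 and 0.301 for Isg20 to 0.969 for Oasl2 and 0.977 for Ifit1. Samhd1 and Isg20 thus followed the rest least closely in these mice.

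The question over all 10 mice was whether these genes differ between nicotine and water. By limma, with p adjusted over 14953 genes after Benjamini and Hochberg, 0 of the 29 passed 0.05, as did 0.0% of all tested genes. The set had 0 genes in either direction at an unadjusted p under 0.05, where 4.28% of all tested genes were higher and 5.84% lower. The log2 difference, nicotine minus water, was negative for 25 of 29 genes, against 49.3% of all tested genes, and positive for 4 (Ifit2, Oas2, Oas3 and Cmpk2), against 50.7%. It had a median of -0.45, against 0.00 over all tested genes, and ran from -0.89 for Rtp4 to 0.18 for Oas3. The groups overlapped in all 29 genes, where 2.02% of all tested genes lay higher and 2.88% lower without overlap. The sign of this median rested on nicotine 1 and 3: it was -0.32 without nicotine 1, -0.05 without nicotine 3, -0.68 without nicotine 5, 0.43 with array weights, which gave nicotine 1 and 3 the lowest weights of the 10, and 0.34 with the neuroendocrine mean as a covariate. With array weights 4 of the 29 genes passed, among 1096 of all 14953 tested genes.

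Over the 8 mice with Chga at or below 9 most values of the set lay higher in nicotine mice, and no gene passed the threshold. The log2 difference was positive for 28 of 29 genes, against 53.5% of all tested genes, with a median of 0.31, a fold of 1.24, against 0.01 over all tested genes. Of the 29 genes 20 (69.0%) were higher and 0 lower at an unadjusted p under 0.05, where 6.01% of all tested genes were higher and 8.69% lower. The 3 nicotine mice were above each of the 5 water mice in 9 genes, against 4.12% of all tested genes, and below each in 0, against 6.47%. The 9 were Usp18, Ifit1, Oas2, Oasl2, Mx1, Rsad2, Cmpk2, Bst2 and Rtp4. By limma 0 of the 29 reached 0.05 after adjustment, as did 0.0% of all tested genes, and the lowest adjusted p among the 29 was 0.0947. Samhd1 was the only one of the 29 with a negative difference, against 46.5% of all tested genes. The size rested in part on nicotine 5: without it the count at an unadjusted p under 0.05 was 7 of 29 and the median 0.19, and in the 4 mice poor in seminal vesicle genes, which also leave it out, they were 6 of 29 and 0.21, with 27 of 29 differences positive in both. The share of all tested genes in these smaller fits is not given here, and 6.01% belongs to the fit over all 8 mice. With array weights 12 of the 29 passed, among 1143 of all tested genes, and without water 5 Rsad2 passed (limma adjusted p = 0.0336), among 90.

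**Figure D2:**
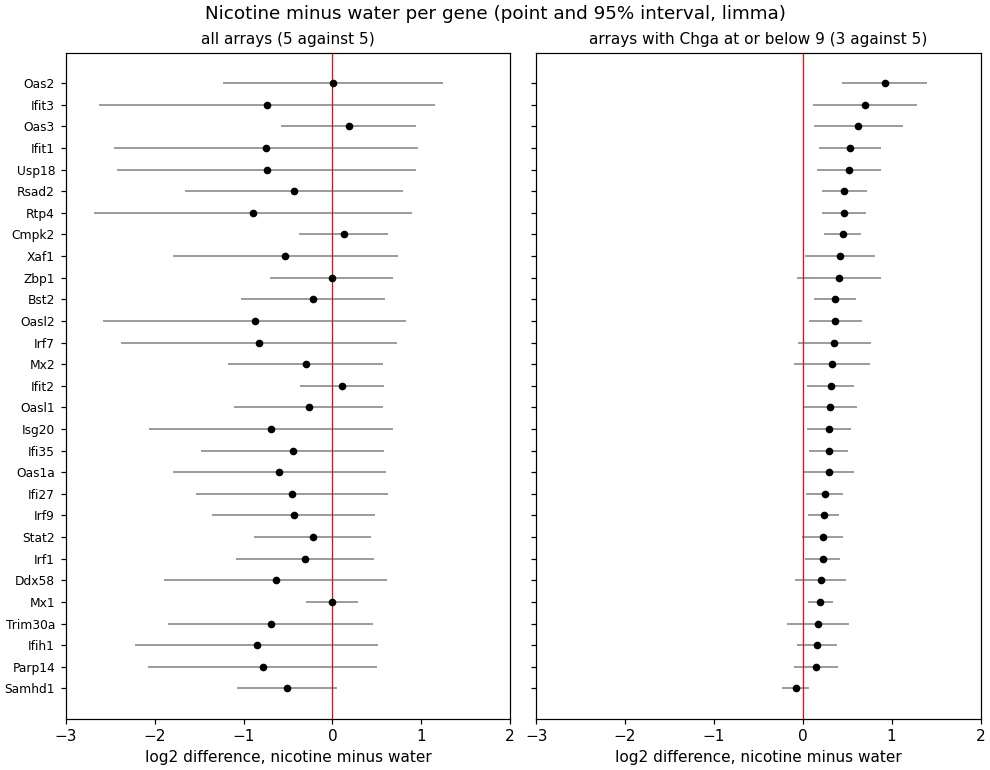
Log2 difference, nicotine minus water, of each of the 29 genes (rows) with its 95% interval by limma, over all 10 mice on the left and over the 8 mice with Chga at or below 9 on the right. On the left the intervals are wide and include 0 for all 29 genes; on the right 28 of 29 points lie above 0, from Oas2 at 0.92 to Samhd1 at -0.08.

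The sensors come first in the pathway. Ddx58 encodes RIG-I and Ifih1 encodes MDA5, the helicases that recognise viral RNA in the cytoplasm, and Zbp1 encodes a receptor for Z-form nucleic acid that can start necroptosis. Ddx58 was at 10.44, 10.33, 10.53, 10.21 and 10.57 in water mice 1 to 5, 9.55 and 7.50 in nicotine mice 1 and 3, and 10.37, 10.51 and 10.96 in nicotine mice 2, 4 and 5 (log2 units, as throughout). It was lowest by far in nicotine 3, 7.55-fold below the water mean, and above all water mice in nicotine 5. Ifih1 was at 10.18, 10.02, 10.18, 9.93 and 10.26 in water mice 1 to 5, 8.52 and 6.97 in nicotine mice 1 and 3, and 10.12, 10.21 and 10.50 in nicotine mice 2, 4 and 5. Here too nicotine 1 and 3 lay below all water mice, and nicotine 2 and 4 lay within the water range. The difference over the 8 mice was 0.20 ± 0.13 (SE) for Ddx58 and 0.16 ± 0.10 for Ifih1, with limma adjusted p of 0.507 and 0.491. Over all 10 it was -0.64 ± 0.56 and -0.85 ± 0.61, with adjusted p of 0.529 and 0.477 by limma. Zbp1 was at 8.55, 8.02, 8.54, 8.21 and 8.03 in water mice 1 to 5, 7.88 and 7.38 in nicotine mice 1 and 3, and 8.81, 8.11 and 9.14 in nicotine mice 2, 4 and 5. Nicotine 2 and 5 were above every water mouse and nicotine 4 was not, and the difference was 0.41 ± 0.21 (SE) over the 8 mice (limma adjusted p = 0.405) and -0.01 ± 0.31 over all 10 (limma adjusted p = 0.987). None of the 3 sensors reached an unadjusted p under 0.05 in either comparison.

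Of the transcription factors, Stat2 and Irf9 are parts of the complex that binds the response element, Irf7 is the factor that amplifies interferon genes, and Irf1 is a factor that interferon gamma also induces strongly. Irf9 was at 10.40, 10.43, 10.56, 10.34 and 10.60 in water mice 1 to 5, 9.56 and 8.48 in nicotine mice 1 and 3, and 10.55, 10.76 and 10.80 in nicotine mice 2, 4 and 5. Nicotine 4 and 5 were above every water mouse, nicotine 2 lay among them and nicotine 1 and 3 lay below. Its difference was 0.24 ± 0.08 (SE) over the 8 mice (limma adjusted p = 0.208) and -0.44 ± 0.41 over all 10 (limma adjusted p = 0.546). Irf7 was at 10.16, 10.28, 10.44, 9.82 and 10.56 in water mice 1 to 5, 8.27 and 7.06 in nicotine mice 1 and 3, and 10.31, 10.48 and 11.04 in nicotine mice 2, 4 and 5. It was 9.16-fold below the water mean in nicotine 3, and only nicotine 5 was above every water mouse. The difference of Irf7 was 0.35 ± 0.19 (SE) over the 8 mice (limma adjusted p = 0.409) and -0.82 ± 0.70 over all 10 (limma adjusted p = 0.515). Irf1 was at 9.88, 9.45, 9.65, 9.60 and 9.58 in water mice 1 to 5, 9.11 and 7.95 in nicotine mice 1 and 3, and 9.95, 9.78 and 9.84 in nicotine mice 2, 4 and 5. Irf1 differed over the 8 mice by 0.22 ± 0.09 (SE, limma adjusted p = 0.275), with water 1 above nicotine 4 and 5. A second Irf1 probe set, with a mean of 7.70, gave a difference of 0.01, so the 2 probe sets disagree. Stat2 differed over the 8 mice by 0.22 ± 0.11 (SE, limma adjusted p = 0.362). Over all 10 Irf1 differed by -0.31 ± 0.35 and Stat2 by -0.22 ± 0.29 (SE, limma adjusted p of 0.608 and 0.657). Irf9 and Irf1 were the 2 of the 4 factors that were higher at an unadjusted p under 0.05 over the 8 mice, against 6.01% of all tested genes.

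Usp18 encodes the protease that removes the ubiquitin-like protein Isg15 from its targets and also dampens signalling at the receptor. It was at 10.40, 10.41, 10.47, 10.25 and 10.54 in water mice 1 to 5, 8.62 and 6.94 in nicotine mice 1 and 3, and 10.59, 10.76 and 11.46 in nicotine mice 2, 4 and 5. Nicotine 2, 4 and 5 lay above every water mouse, with nicotine 5 2.06-fold above the water mean and nicotine 3 11.1-fold below it. The difference was 0.52 ± 0.16 (SE) over the 8 mice, a fold of 1.44 (limma adjusted p = 0.180), and -0.74 ± 0.75 over all 10 (limma adjusted p = 0.573).

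The IFIT proteins bind foreign RNA, such as RNA without the host's cap methylation, and block its translation. Ifit1 was at 9.75, 9.43, 9.58, 9.50 and 9.78 in water mice 1 to 5, 7.83 and 6.07 in nicotine mice 1 and 3, and 9.93, 9.86 and 10.62 in nicotine mice 2, 4 and 5. The 3 nicotine mice with low Chga were above all water mice, and nicotine 3 was 11.6-fold below the water mean. Its difference over the 8 mice was 0.53 ± 0.16 (SE), a fold of 1.44 (limma adjusted p = 0.170), and -0.75 ± 0.76 over all 10 (limma adjusted p = 0.576). Ifit3 was at 10.60, 10.07, 10.77, 10.26 and 10.47 in water mice 1 to 5, 8.01 and 7.05 in nicotine mice 1 and 3, and 10.92, 10.57 and 11.93 in nicotine mice 2, 4 and 5. The value in nicotine 5 was 2.82-fold above the water mean, the largest such excess of the 29 genes, while nicotine 4 lay below water 1 and 3. Ifit3 differed by 0.70 ± 0.26 (SE) over the 8 mice (limma adjusted p = 0.252) and -0.74 ± 0.85 over all 10 (limma adjusted p = 0.613). Probes for Ifit3 may also capture its near copy Ifit3b, so its values are uncertain in that respect. Ifit2 was at 8.34, 8.01, 8.31, 8.40 and 8.53 in water mice 1 to 5, 7.62 and 8.61 in nicotine mice 1 and 3, and 8.42, 8.66 and 8.81 in nicotine mice 2, 4 and 5. It was the exception in nicotine 3, where it was above all water mice while the other 28 genes were below them, and the array that was lowest for Ifit2 was nicotine 1. Ifit2, described because of this exception after its values were seen, differed by 0.31 ± 0.12 (SE, limma adjusted p = 0.252) over the 8 mice and by 0.11 ± 0.21 over all 10 (limma adjusted p = 0.772). Ifit2 and Ifit3 are next to each other among protein-coding genes, and their correlation was 0.721 over the 8 mice and 0.410 over all 10.

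**Figure D3:**
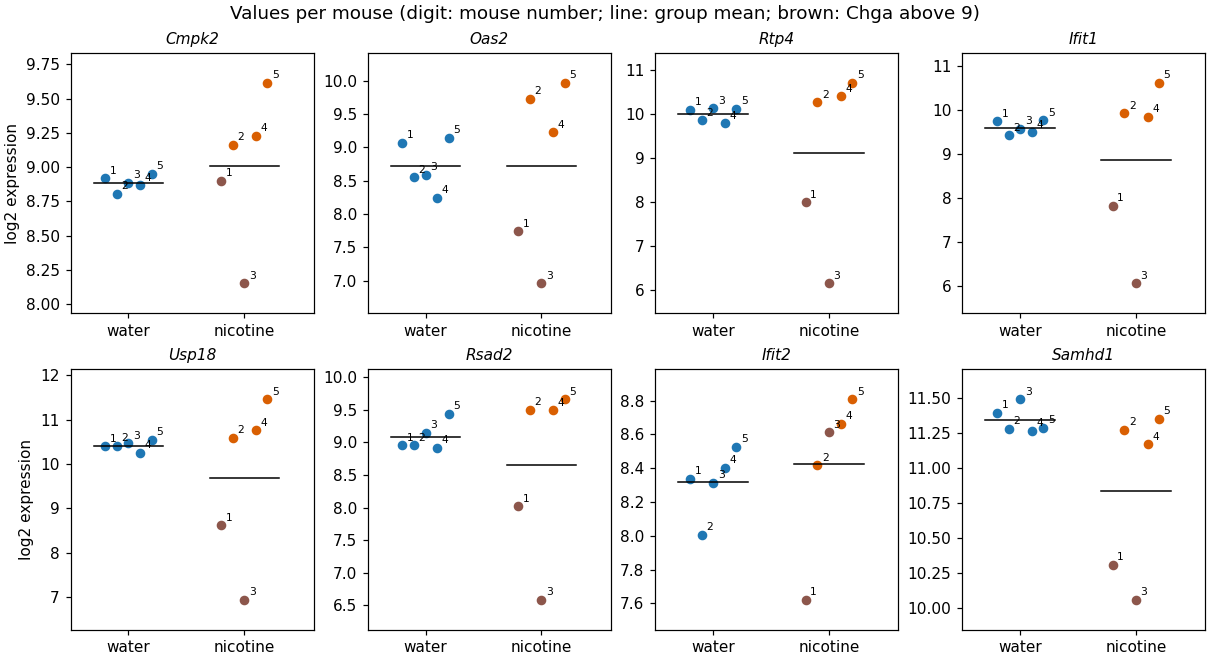
Log2 values (vertical axis, a scale of its own in each panel) of 8 genes in the 5 water and 5 nicotine mice, with the mouse number at each point and a line at the group mean. Nicotine 2, 4 and 5 (orange) lie above all water mice for Cmpk2, Oas2, Rtp4, Ifit1, Usp18 and Rsad2, nicotine 3 is high for Ifit2, and Samhd1 shows no such excess.

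The OAS enzymes make 2′-5′ oligoadenylates, which activate an RNA-degrading nuclease, and the OAS-like proteins Oasl1 and Oasl2 are their relatives. Oas2 was at 9.07, 8.55, 8.59, 8.25 and 9.14 in water mice 1 to 5, 7.74 and 6.96 in nicotine mice 1 and 3, and 9.73, 9.23 and 9.97 in nicotine mice 2, 4 and 5. Its difference over the 8 mice was the largest of the 29, 0.92 ± 0.22 (SE), a fold of 1.89 (limma adjusted p = 0.117), with no overlap between the groups. Its difference over all 10 was 0.00, with nicotine 1 and 3 below all water mice and nicotine 2, 4 and 5 above them. Oas3 was at 7.73, 7.50, 7.73, 7.42 and 7.92 in water mice 1 to 5, 7.61 and 6.74 in nicotine mice 1 and 3, and 8.29, 7.66 and 8.90 in nicotine mice 2, 4 and 5. Nicotine 2 and 5 stood above all water mice and nicotine 4 stood within their range, with a difference of 0.63 ± 0.22 (SE, limma adjusted p = 0.230). Oasl2 was at 11.03, 10.91, 11.11, 10.68 and 11.06 in water mice 1 to 5, 9.31 and 7.15 in nicotine mice 1 and 3, and 11.11, 11.18 and 11.68 in nicotine mice 2, 4 and 5. The deficit in nicotine 3 was 14.0-fold, and nicotine 2 exceeded the highest water mouse by less than the rounding of these values. Its difference was 0.37 ± 0.14 (SE) over the 8 mice (limma adjusted p = 0.247) and -0.87 ± 0.76 over all 10 (limma adjusted p = 0.527). Oas1a was at 9.43, 9.62, 9.55, 9.24 and 9.60 in water mice 1 to 5, 8.17 and 6.95 in nicotine mice 1 and 3, and 9.64, 9.58 and 10.13 in nicotine mice 2, 4 and 5. It differed by 0.29 ± 0.13 (SE) over the 8 mice (limma adjusted p = 0.333) and by -0.60 ± 0.54 over all 10 (limma adjusted p = 0.534); a further probe set shared with Oas1g was left out. Oasl1 differed by 0.31 ± 0.13 (SE, limma adjusted p = 0.321) over the 8 mice. All 5 genes of the family were higher at an unadjusted p under 0.05 there, against 6.01% of all tested genes. Over all 10 mice Oas3 differed by 0.18 ± 0.34 and Oasl1 by -0.27 ± 0.37 (SE, limma adjusted p of 0.759 and 0.679).

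The Mx proteins are dynamin-like GTPases that trap viral particles. Mx1 was at 6.74, 6.57, 6.72, 6.76 and 6.70 in water mice 1 to 5, 6.45 and 6.32 in nicotine mice 1 and 3, and 6.85, 6.83 and 7.01 in nicotine mice 2, 4 and 5. The span was narrow, with nicotine 2, 4 and 5 above all water mice and a difference of 0.20 ± 0.06 (SE, limma adjusted p = 0.196) over the 8 mice. The difference of Mx1 over all 10 mice was -0.01 ± 0.13 (SE, limma adjusted p = 0.978), and it changes sign to 0.020 when quantile normalization is applied again and to 0.029 when arrays are centred. Mx2 was at 6.95, 6.49, 6.62, 6.60 and 6.87 in water mice 1 to 5, 5.63 and 5.30 in nicotine mice 1 and 3, and 6.95, 6.58 and 7.58 in nicotine mice 2, 4 and 5. Nicotine 4 lay among the water mice, and Mx2 differed by 0.33 ± 0.19 (SE) over the 8 mice (limma adjusted p = 0.463) and -0.30 ± 0.39 over all 10 (limma adjusted p = 0.655). Both genes are close to the limit of the filter on low values.

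A group of enzymes acts on nucleotides and RNA. Rsad2 encodes viperin, which makes a chain-terminating nucleotide, and Cmpk2, its neighbour in the genome, encodes a mitochondrial nucleotide kinase. Cmpk2 was at 8.92, 8.81, 8.89, 8.87 and 8.95 in water mice 1 to 5, 8.90 and 8.15 in nicotine mice 1 and 3, and 9.16, 9.23 and 9.61 in nicotine mice 2, 4 and 5. The 5 water mice lay close together, nicotine 2, 4 and 5 were all above them, and nicotine 1 was level with them. With a difference of 0.45 ± 0.09 (SE), a fold of 1.36, Cmpk2 had the smallest adjusted p of the 29 over the 8 mice (limma adjusted p = 0.0947). Rsad2 was at 8.96, 8.96, 9.15, 8.91 and 9.44 in water mice 1 to 5, 8.02 and 6.59 in nicotine mice 1 and 3, and 9.50, 9.49 and 9.66 in nicotine mice 2, 4 and 5. Nicotine 2, 4 and 5 lay close together above all water mice, of which water 5 came nearest, and the difference was 0.47 ± 0.11 (SE, limma adjusted p = 0.128). Over all 10 mice Cmpk2 differed by 0.13 ± 0.23 and Rsad2 by -0.43 ± 0.55 (SE, limma adjusted p of 0.750 and 0.647). The pair correlated at 0.838 over the 8 mice and at 0.859 over all 10.

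Samhd1 encodes the enzyme that breaks down deoxynucleotides, and Isg20 encodes an RNA exonuclease. Samhd1 was at 11.39, 11.28, 11.49, 11.27 and 11.29 in water mice 1 to 5, 10.31 and 10.06 in nicotine mice 1 and 3, and 11.27, 11.17 and 11.35 in nicotine mice 2, 4 and 5. It shared the low values of nicotine 1 and 3 and not the high values of the other nicotine mice, of which nicotine 4 lay below all water mice. Its difference over the 8 mice was -0.08 ± 0.07 (SE), with a 95% interval from -0.23 to 0.07 (limma adjusted p = 0.637). Samhd1 had over all 10 mice the smallest p of the set, with a difference of -0.51 ± 0.25 (SE, limma adjusted p = 0.458). Isg20 was at 10.60, 10.88, 10.71, 10.86 and 10.41 in water mice 1 to 5, 9.46 and 7.59 in nicotine mice 1 and 3, and 10.82, 11.12 and 11.01 in nicotine mice 2, 4 and 5. Nicotine 4 and 5 were above all water mice and nicotine 3 was 8.59-fold below the water mean, and the difference was 0.29 ± 0.11 (SE) over the 8 mice (limma adjusted p = 0.256) and -0.69 ± 0.62 over all 10 (limma adjusted p = 0.531).

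Bst2 encodes tetherin, which holds budding viruses at the cell surface and is also a surface marker of plasmacytoid dendritic cells. It was at 9.29, 9.21, 9.35, 9.23 and 9.20 in water mice 1 to 5, 8.63 and 7.70 in nicotine mice 1 and 3, and 9.40, 9.52 and 9.95 in nicotine mice 2, 4 and 5. The water mice lay close together and nicotine 2, 4 and 5 lay above them, with a difference of 0.37 ± 0.11 (SE), a fold of 1.29 (limma adjusted p = 0.162). The difference of Bst2 over all 10 was -0.22 ± 0.36 (limma adjusted p = 0.729), and it turned to 0.12 without nicotine 3. The 6 of 8 plasmacytoid dendritic cell markers found on the array averaged 7.46 to 7.64 in water mice, 7.51 to 7.55 in nicotine mice 2, 4 and 5, 7.83 in nicotine 1 and 7.97 in nicotine 3. The markers did not move together: in nicotine 3 Tcf4 was at 12.34, against 9.42 to 9.81 in the 8 mice with low Chga, while Siglech, at 6.75, and Ly6d, at 7.31, were at their lowest of the 10.

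The remaining 6 measured genes have less settled or varied roles. Rtp4, a chaperone of opioid and taste receptors that interferon induces, was at 10.10, 9.87, 10.14, 9.80 and 10.12 in water mice 1 to 5, 8.01 and 6.16 in nicotine mice 1 and 3, and 10.27, 10.42 and 10.72 in nicotine mice 2, 4 and 5. Nicotine 2, 4 and 5 were above all water mice and nicotine 3 was 14.3-fold below their mean, the largest deficit of the 29. The difference of Rtp4 was 0.46 ± 0.11 (SE) over the 8 mice, a fold of 1.38 (limma adjusted p = 0.128), and -0.89 ± 0.80 over all 10 (limma adjusted p = 0.534). Ifi35 was at 10.02, 9.91, 10.16, 9.97 and 9.82 in water mice 1 to 5, 9.08 and 7.76 in nicotine mice 1 and 3, and 10.11, 10.20 and 10.50 in nicotine mice 2, 4 and 5. It differed by 0.29 ± 0.10 (SE, limma adjusted p = 0.207) over the 8 mice, with water 3 above nicotine 2, and by -0.45 ± 0.46 over all 10 (limma adjusted p = 0.577). Xaf1, which antagonises an inhibitor of apoptosis, differed by 0.42 ± 0.18 (SE, limma adjusted p = 0.310) over the 8 mice and by -0.53 ± 0.57 over all 10 (limma adjusted p = 0.587). For Ifi27 these differences were 0.25 ± 0.09 (SE, limma adjusted p = 0.253) and -0.45 ± 0.48 (limma adjusted p = 0.588). Parp14, an ADP-ribosyltransferase, was at 9.90, 9.54, 9.82, 9.51 and 9.84 in water mice 1 to 5, 8.37 and 6.72 in nicotine mice 1 and 3, and 9.81, 9.71 and 10.08 in nicotine mice 2, 4 and 5. Only nicotine 5 was above all water mice, and the difference was 0.15 ± 0.11 (SE) over the 8 mice (limma adjusted p = 0.589) and -0.78 ± 0.58 over all 10 (limma adjusted p = 0.481). Trim30a, a tripartite motif protein that dampens inflammatory signalling, was at 9.65, 9.53, 9.61, 9.39 and 9.30 in water mice 1 to 5, 7.93 and 7.08 in nicotine mice 1 and 3, and 9.48, 9.36 and 10.15 in nicotine mice 2, 4 and 5. It too was above all water mice in nicotine 5 alone, and differed by 0.17 ± 0.16 (SE) over the 8 mice (limma adjusted p = 0.659) and -0.70 ± 0.52 over all 10 (limma adjusted p = 0.483). In this group 4 of 6 genes were higher at an unadjusted p under 0.05 over the 8 mice, against 6.01% of all tested genes.

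Other genes of the pathway were taken from lists that were chosen with earlier results of these data known. None of their genes passed the adjusted threshold in either comparison. Of all tested genes 46.5% had negative differences over the 8 mice, and 6.01% were higher and 8.69% lower at an unadjusted p under 0.05. Over all 10 mice these shares were 49.3%, 4.28% and 5.84%. Of the 15 measured interferon ligand genes 8 passed the filter, and their median difference was 0.03 over all 10 mice and 0.01 over the 8, with 0 of 8 at an unadjusted p under 0.05. Examples over the 8 mice were Ifna14 (0.05 ± 0.05 SE), Ifna5 (0.05 ± 0.09) and Ifna2 (0.05 ± 0.08). The beta interferon gene Ifnb1 was below the limit of the filter. Of 6 receptor genes, 5 had negative differences over the 8 mice with a median of -0.13, and Ifnar1 and Il10rb (-0.15 ± 0.05 SE) were lower at an unadjusted p under 0.05. The receptor chains Ifnar2 (-0.13 ± 0.06 SE), Ifngr1 (-0.12 ± 0.07) and Ifnar1 (-0.18 ± 0.07) had the smallest p over all 10 mice, where they differed by -0.61 ± 0.30, -0.51 ± 0.27 and -0.12 ± 0.07. All 3 measured receptor kinases had negative differences over the 8 mice, with Jak2 (-0.19 ± 0.07 SE) lower at an unadjusted p under 0.05, as over all 10, and the others at lesser differences, Jak1 (-0.08 ± 0.06) and Tyk2 (-0.02 ± 0.10).

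Of 13 sensing and induction genes, 7 had positive differences over the 8 mice with a median of 0.00, and 1 was higher at an unadjusted p under 0.05, Dhx58 (0.52 ± 0.17 SE), which encodes a helicase related to RIG-I. The induction genes Ikbke (-0.12 ± 0.06 SE), Unc93b1 (-0.16 ± 0.10) and Irf5 (-0.09 ± 0.10) had the smallest p over all 10 mice, with differences of -0.55 ± 0.29, -0.56 ± 0.30 and -0.23 ± 0.13 there. Of 9 negative regulators, 5 had positive differences over the 8 mice, 1 was higher, the DNA exonuclease gene Trex1 (0.20 ± 0.06 SE), and 2 lower, Pias1 (-0.13 ± 0.06) and Ptpn6, at an unadjusted p under 0.05. The suppressors of cytokine signalling Socs3 (0.34 ± 0.20 SE) and Socs1 (0.11 ± 0.08) and the phosphatase gene Ptpn6 (-0.14 ± 0.06) had the smallest p over all 10 mice. Of 41 further interferon-stimulated genes, 38 had positive differences over the 8 mice with a median of 0.15, and 11 were higher and 0 lower at an unadjusted p under 0.05. Of all tested genes 53.5% were positive, 6.01% higher and 8.69% lower by the same measures. Among the 11 were the chemokine gene Cxcl10 (0.50 ± 0.18 SE), the membrane protein gene Ifitm3 (0.45 ± 0.13) and Uba7 (0.18 ± 0.06) and Ube2l6 (0.37 ± 0.15), the enzymes that attach Isg15 to proteins, all chosen after their values were seen. Over all 10 mice 39 of these 41 were negative, against 49.3% of all tested genes, with a median of -0.32. Ifi203 (-0.87 ± 0.37 SE), Cd274 (-0.13 ± 0.08) and Lgals3bp (-0.90 ± 0.57) had the smallest p in that comparison, and over the 8 mice they differed by -0.28 ± 0.16, -0.06 ± 0.07 and -0.01 ± 0.11. The median of the further targets thus had the sign of that of the 29 genes in both comparisons. Ligand genes, many of them with low values, had medians near 0 in both, and receptor and kinase genes negative medians in both. Over all 10 mice and the 8 mice the medians were -0.29 and 0.00 for sensing genes and -0.02 and 0.07 for negative regulators.

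**Figure D4:**
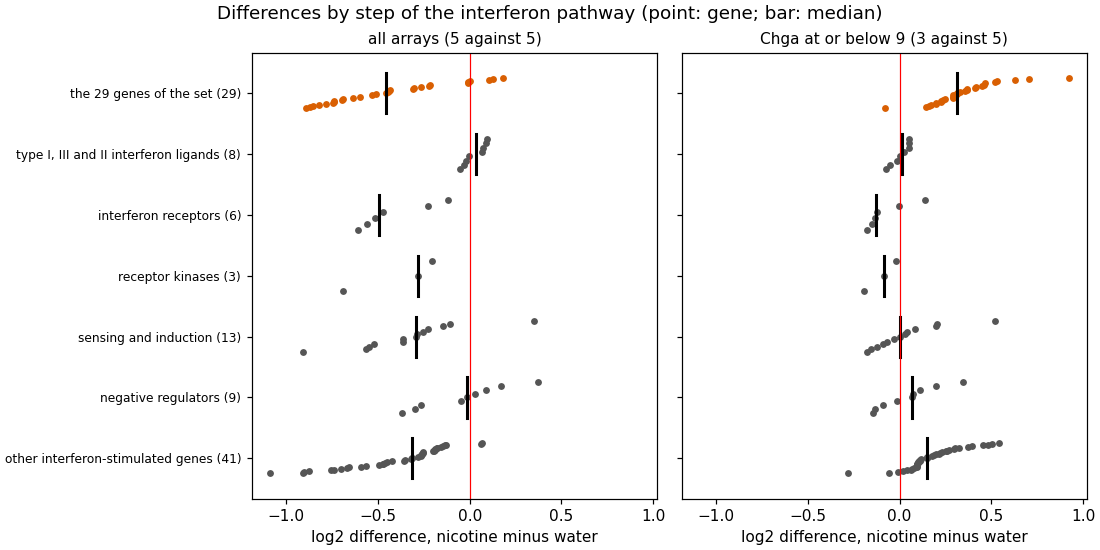
Log2 difference, nicotine minus water (horizontal axis), of each tested gene of the 29-gene set and of 6 other pathway lists (rows, number of tested genes in parentheses), with a bar at each median, over all 10 mice on the left and the 8 mice with Chga at or below 9 on the right. On the right the set has a median of 0.31 and the 41 further interferon-stimulated genes one of 0.15, while ligands and sensing genes lie around 0 and receptors at -0.13.

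Genes outside the set were ranked by the likeness of their pattern to the mean of the 29 genes, as Pearson correlations given as a description with no p. Over the 8 mice with Chga at or below 9 the 8 most alike were Parp12 (0.981), Dhx58 (0.978), Phf11d (0.967), Parp9 (0.966), Slfn2 (0.958), Rbpms2 (0.957), Brca2 (0.953) and Nup205 (0.951), out of 14181 genes whose median correlation was -0.0020. The first 5 of these are in the pathway lists above. Over all 10 mice, where nicotine 1 and 3 set most of the pattern, they were Kcnmb1 (0.992), Parp9 (0.991), Uba7 (0.990), Irgm1 (0.990), Mlkl (0.989), Lgals9 (0.988), Tap1 (0.987) and Rbpms2 (0.985). Kcnmb1, a potassium channel subunit of smooth muscle, led that list. The smooth muscle list had its lowest means in nicotine 1 and 3, 10.36 and 8.12 against 10.79 to 11.18 in the other 8. Its markers did not all move together: Des was at its highest of the 10 mice in nicotine 1 (11.69). Smtn lay within the range of the water mice in nicotine 1 and 3 (9.17 and 9.10).

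Marker lists of other cells also differed between these mice. In the 8 mice 9 of 10 macrophage markers had negative differences and 6 were lower at an unadjusted p under 0.05, against 46.5% and 8.69% of all tested genes, with list means of 8.64 to 9.23 in water mice and 8.46 to 8.71 in nicotine mice 2, 4 and 5. Fibroblast markers were lower in 8 of 8, all at an unadjusted p under 0.05 (8.69% of all tested genes), with means of 9.72 to 10.09 against 9.12 to 9.39. The T cell list had means of 6.49 to 6.81 against 6.51 to 6.62, and the NK cell list 6.13 to 6.29 against 6.09 to 6.22. Endothelial markers had negative differences in 8 of 8, with 5 at an unadjusted p under 0.05 (8.69% of all tested genes) and means of 7.86 to 8.11 against 7.64 to 7.77. The fibroblast and endothelial means were thus lower without overlap in the 3 nicotine mice in which most of the 29 genes were higher, while the macrophage means overlapped, and the part of these lists in the result was not tested. Over all 10 mice, where 49.3% of all tested genes were negative and 5.84% lower at an unadjusted p under 0.05, negative and lower markers numbered 10 and 4 of 10 for macrophages, 8 and 5 of 8 for fibroblasts, and 6 and 1 of 8 for endothelium. In nicotine 3 the list means for macrophages (7.99), fibroblasts (8.64), smooth muscle (8.12) and luminal epithelium (6.83) were the lowest of the 10 mice. The median of the 29 genes was also lowest there, and the neuroendocrine mean was the highest (10.28). Not every marker followed its list: the fibroblast gene Fbln1 was at its highest of the 10 mice there (10.31). Col1a1 (9.65), Cd68 (9.34), Smtn (9.10) and Pcsk1 (6.20) lay within the range of the water mice. In nicotine 1 the skeletal muscle list stood at 10.32 against 7.32 to 7.69 in the other mice. The part of these cells in the low values of nicotine 1 and 3 was not tested. Set beside the seminal vesicle list, the mean of the 29 genes relative to the water mean was 0.08, -0.14 and 0.09 in water 3, 4 and 5, which were rich in seminal vesicle genes, and 0.06 and -0.10 in water 1 and 2. Among nicotine mice with low Chga it was 0.66 in nicotine 5, the only one rich in them (12.52), and 0.22 and 0.17 in nicotine 2 and 4 (7.96 and 8.54). The part of seminal vesicle tissue in the high values of nicotine 5 was not tested. Arrays give no value of 0, so no marker can be called absent.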

How the data were processed

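Expression was measured on biotin-labelled, single-colour whole-transcript arrays, 1 per mouse, in 5 water and 5 nicotine mice that the labels number separately. The authors deposited 1 table of log2 values (35556 probe sets, 10 arrays, values from 3.59 to 14.12, array medians from 7.50 to 7.57). The log2 scale was read from that range, and the sources used here do not give how background correction, summarising and normalization were done. Names came from the annotation of the platform, in which 21789 probe sets had 1 symbol, 1621 several and 12146 none, and 21698 of the first kind matched RefSeq (GRCm38.p6) by Entrez identifier, with 0 symbols changed. Per gene the probe set with the highest mean was kept (19938 genes), and the 25% with the lowest mean were left out. The comparison used R 4.3.3 and limma 3.58.1 (lmFit, eBayes, two-sided, Benjamini-Hochberg over 14953 genes, threshold 0.05), over all arrays and over the 8 with Chga at or below 9 log2 units. The steps were tested on simulated data.

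The members and lists were chosen with earlier results of these data known. Values per mouse go to the 10 members with the smallest p in each comparison plus up to 2 per role, and pathway lists give up to 3 genes by p over all arrays. Ifit2, the differences of Stat2, Oasl1, Xaf1 and Ifi27, and the other pathway genes named were added after their values were seen. Alternatives were other filters, probe set rules, normalizations, priors, array weights, a block on the mouse number, tissue covariates and leaving out each mouse. No batch label was used here. The p-values set the group difference against the spread between mice within groups, which limma draws towards that of all tested genes. In the smaller comparison that spread leaves out the mice with Chga above 9.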

Additional observations from a re-analysis of the deposited data

How the results depend on the processing

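Over all 10 mice genes of the 29 passed the adjusted threshold in 1 of 22 alternatives, array weights, with 4, and leaving out each mouse gave 0 to 0. The weights were 0.113 for nicotine 1, 0.0321 for nicotine 3 and 4.67 for nicotine 5. The median difference was -0.68 to -0.05 when a mouse was left out. It was positive in 2 of 22 alternatives, at 0.43 with array weights and 0.34 with the neuroendocrine covariate. Single genes reversed with array weights to 0.21 for Ifih1, 0.20 for Parp14, 0.30 for Trim30a, 0.45 for Irf7, 0.44 for Oasl2, 0.29 for Ddx58, 0.23 for Isg20, 0.39 for Oas1a, 0.49 for Rtp4, 0.22 for Irf9, 0.66 for Usp18, 0.70 for Ifit1, 0.89 for Ifit3, 0.57 for Mx2, 0.44 for Bst2 and 0.23 for Mx1. With the neuroendocrine covariate they reversed to 0.19 for Ifih1, 0.19 for Parp14, 0.17 for Trim30a, 0.38 for Irf7, 0.41 for Oasl2, 0.25 for Ddx58, 0.30 for Isg20, 0.31 for Oas1a, 0.50 for Rtp4, 0.26 for Irf9, 0.55 for Usp18, 0.57 for Ifit1, 0.73 for Ifit3, 0.35 for Mx2, 0.38 for Bst2 and 0.20 for Mx1. Bst2 also reversed with the seminal vesicle covariate (0.049) and Mx1 with it (0.10), with quantile normalization again (0.020) and with centring (0.029). Leaving out a mouse took Bst2 from -0.44 to 0.12 and Mx1 from -0.086 to 0.086.

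Over the 8 mice the median difference was positive in all 19 alternatives, from 0.19 to 0.42 when a mouse was left out. Array weights, which gave the most weight to nicotine 5 (2.72) and water 3 (2.24), brought 12 of 29 genes past the adjusted threshold, and leaving out a mouse brought 0 to 1. The count higher at an unadjusted p under 0.05 was 20 and went from 7 to 21 when a mouse was left out. It was 6 in the mice poor in seminal vesicle genes, with fewer samples. The shares of all tested genes in these fits are not given here.

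Mouse numbers occur in both groups, and no label says that they are shared. The deviations of same-numbered mice correlated at -0.13 to 0.16, so the numbers were not taken as pairs. With the mouse number as a replicate block, 0 genes passed in either comparison, and the median difference was -0.45 over all 10 and 0.37 over the 8. In that fit 25 genes were higher at an unadjusted p under 0.05 over the 8. The share of all tested genes in the block fit is not given here. Over 58 groups of 5 values, 0 held a value that stood apart by Dixon's ratio at its critical value of 0.71. This ratio looks for a single value, and low values in both nicotine 1 and nicotine 3 can hide each other from it. It therefore says nothing about whether these mice stand apart. The number of arrays, 3 nicotine mice in the smaller comparison, limits the precision.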
